A study of Mus musculus with 32 samples.

Results

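The mRNAs carried by heavy polysomes in mouse embryonic fibroblasts (MEFs, cells of connective tissue from embryos kept in culture) after 16 h of thapsigargin were set against those of control MEFs, which had thapsigargin for 0 h. The members were chosen by their labels alone: the 4 libraries of polysome-associated RNA at 16 h and the 4 of control, 8 of the 32 libraries of the series. Thapsigargin inhibits the pump that fills the endoplasmic reticulum (ER) with calcium, so that the store empties and ER stress follows. All 4 conditions of the series used the same kind of MEFs, grown in high-glucose medium with serum, and every sample was sequenced both as cytosolic RNA and as polysome RNA. The other conditions were 1 h of thapsigargin, and 16 h of thapsigargin in which a PERK kinase inhibitor was present over the last 4 h. Polysome RNA was the part of the cytosolic RNA that sedimented in a sucrose gradient with more than 4 ribosomes per mRNA. The genotype and strain of the MEFs, the doses, the name of the inhibitor and the solvent of the control were not stated in any source used here. Nothing in the labels says that the 4 replicates were separate cultures, so the spread that p-values measure is that of these samples and may be technical.

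When ER folding fails, PERK phosphorylates the initiation factor eIF2, and translation of most mRNAs slows while some mRNAs with upstream open reading frames, such as that of the transcription factor ATF4, are translated more. This is the integrated stress response. The sensor ATF6, and the sensor IRE1 through the transcription factor XBP1, raise the transcription of genes for ER chaperones and for the degradation of misfolded ER proteins. The amount of an mRNA in heavy polysomes depends both on how much of it the cell holds and on how many ribosomes each copy carries, and a long coding region has room for more ribosomes than a short region.

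Libraries at 16 h held 33.36 to 36.22 M counts and control libraries 30.74 to 35.64 M. Levels are CPM (counts per 1 M counts), scaled with TMM factors over the 16 polysome libraries, so each change is measured against the rest of the library's mRNAs, and a general loss of polysomes would not be seen. In bulk RNA, fewer cells of a type and less RNA per cell cannot be told apart. The error of a level is the standard deviation (SD) over 4 libraries, and that of a log2 change is the standard error (SE) from the fit. Fibroblast marker genes summed to 4644 to 6611 CPM at 16 h and 6431 to 8306 CPM in control, and 2 of the 12, Dcn and Lum, were too low to test. Marker sums were 0.443 to 0.986 CPM against 2.12 to 2.69 CPM for epithelial genes, 1.30 to 1.72 against 2.18 to 3.35 for endothelial genes, 17.9 to 21.6 against 24.4 to 28.0 for leukocyte genes, 0.222 to 0.479 against 0.435 to 0.659 for muscle genes and 73.0 to 83.2 against 61.8 to 70.0 for neural genes, 16 h libraries before control libraries. Libraries differed in the level of genes with high transcript GC content (over 53.4%). The median of these genes lay at -0.13 (log2) from their group's mean in replicate 3 of both conditions, and at 0.10 in replicate 4 at 16 h and 0.11 in replicate 4 of control. With both libraries of replicate 3 left out, 10287 genes were called, against 10273 with them.

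The promoters of ER chaperone genes were searched for the ER stress response element (ERSE), the site through which ATF6 and XBP1 are known to act on such genes, and those of ATF4 target genes for the composite ATF4-CEBP element. Windows are shown only for genes that held a match: the ER chaperone genes with the smallest p, and the ATF4 and CHOP target genes. They were thus chosen for holding the element. Sequences come from RefSeq promoters on GRCm38.p6, 250 bases before each start were searched on both strands, and capitals mark the matched letters. The matches begin 65, 212, 98, 162, 111 and 140 bases before the start of the 6 genes, in the order shown; Hsp90b1 held a second match, nearer its start and in the opposite orientation, which is not shown.
Hspa5, chr2:34772005-34772063, plus strand: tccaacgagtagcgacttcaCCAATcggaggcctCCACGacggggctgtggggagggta
Hsp90b1, chr10:86705618-86705676, minus strand: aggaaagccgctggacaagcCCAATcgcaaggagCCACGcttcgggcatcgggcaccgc
Pdia6, chr12:17266471-17266529, plus strand: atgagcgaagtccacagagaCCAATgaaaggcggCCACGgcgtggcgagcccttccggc
Calr, chr8:84847055-84847113, minus strand, element in the opposite orientation: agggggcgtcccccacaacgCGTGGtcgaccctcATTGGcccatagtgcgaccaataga
Nupr1, chr7:126625553-126625601, minus strand, element in the opposite orientation: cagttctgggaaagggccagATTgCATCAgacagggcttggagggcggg
Fgf21, chr7:45615602-45615650, minus strand, element in the opposite orientation: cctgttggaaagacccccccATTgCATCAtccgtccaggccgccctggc
The ERSE search used the letters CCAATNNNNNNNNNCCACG. It matched 7 of the 25 ER chaperone and folding genes that had a promoter in the table (28%), namely Hspa5, Hsp90b1, Dnajc3, Calr, Canx, Pdia6 and Creld2, against 35 of all 27025 genes with a promoter (0.13%). Among genes tested in polysome RNA that had a promoter, 16 of 9281 held it (0.172%), of which 13 rose and 2 fell. Over all 12065 genes tested, with or without a promoter, 42.3% rose and 42.9% fell. The 7 ER genes just named are among these 16. Their list was chosen with earlier results of these data known, so the counts of risen and fallen genes are not independent of it. The element stood before 10 of the 1871 genes that rose at least 2-fold (0.534%) and before 0 of the 1998 that fell at least 2-fold. The ATF4-CEBP search, with TGATGNAAT, matched 2 of 30 ATF4 and CHOP target genes with a promoter and 50 of the 9281 genes tested (0.539%). It stood before 0.695% of genes that rose by 2-fold or more and 0.601% of genes that fell by as much. A match describes the letters in the window and is not a measured binding site.

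Polysome RNA changed for most genes, in both directions and about equally often. Of 12065 genes tested, 10273 passed edgeR's quasi-likelihood test at a Benjamini-Hochberg adjusted p under 0.05 (85.1%) and are called here; 5103 rose (42.3%) and 5170 fell (42.9%). At least 2-fold changes were called for 2443 higher (20.2%) and 2690 lower genes (22.3%), and at least 8-fold changes for 211 (1.75%) and 467 (3.87%). All 4 libraries of a condition lay on the same side of the other 4 for 9369 genes (77.7%; 38.5% with 16 h above and 39.2% with 16 h below). The median log2 change over all genes was -0.01. The same test in cytosolic RNA called 77.3% of 12366 genes, 37.9% higher and 39.4% lower, and the test of the polysome change minus the cytosolic change called 64.2% of 12561 genes, 31.1% higher and 33.0% lower. Adjusted p of the genes named below as risen or fallen in polysome RNA ran from 6.68e-26 to 0.0193. Most were chosen for small p or large change, so this range describes the choice. Because so many genes were called, a list is described by how far its counts and its median lie from these shares.

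**Figure D1:**
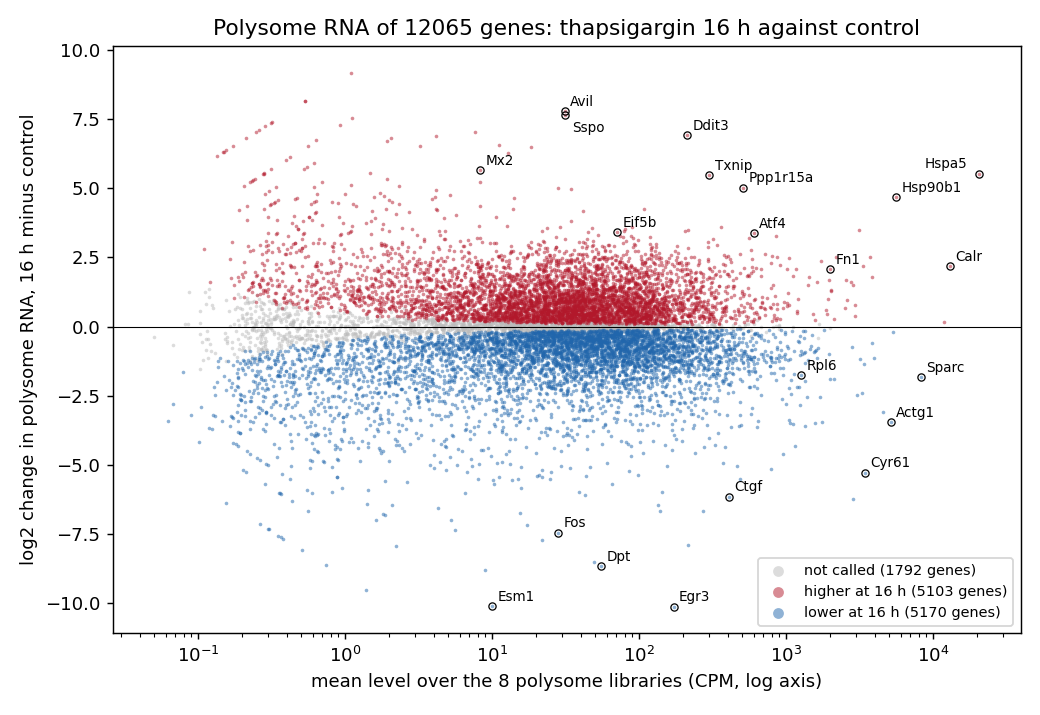
Log2 change in polysome RNA, 16 h minus control (vertical axis), against the mean level over the 8 libraries in CPM (horizontal log axis) for 12065 genes; red genes rose, blue genes fell, grey genes were not called. Hspa5 and Calr stand at the upper right and Actg1 and Cyr61 at the lower right, among the most abundant mRNAs.

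The share of the polysome pool taken by a few ER genes grew. Hspa5, which encodes BiP, the main ER chaperone of the Hsp70 family, took 3.91%, 4.15%, 3.93% and 3.88% of the counts of the 16 h libraries. In control libraries its share was 0.0811 ± 0.00788% (SD, n = 4), and the gene with most counts there was Sparc, a secreted matrix glycoprotein gene, at 1.20% to 1.22%. The 10 genes with most counts held 11.5% to 11.7% at 16 h and 7.06% to 7.21% in control, and 5 genes were among the 20 with most counts in both conditions. The 8 genes that gained most CPM were Hspa5, Calr, Hsp90b1, Hyou1, Slc3a2, Herpud1, Pdia6 and Pdia4. Among the 8 that lost most were Sparc, Actg1, Actb, Cyr61, Lox, Bgn and Serpinh1, genes of the actin cytoskeleton, of the matrix and its processing, and of secreted signals.

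ER chaperones and folding enzymes were divided: BiP, Hsp90b1, Hyou1 and the lectin chaperones rose, while the prolyl isomerases Ppib, Fkbp10 and Fkbp14 and some J-domain and thioredoxin-domain proteins fell. Of 33 members 19 rose and 13 fell, with a median log2 change of 0.85 against -0.01 over all genes. In cytosolic RNA 25 of the 33 rose and 5 fell, with a median of 0.86. The polysome change minus the cytosolic change was called lower for 22 members and higher for 5, with a median of -0.58. Together the 33 genes took 10.9 ± 0.205% of the counts at 16 h and 2.94 ± 0.0313% in control. Calr, which encodes the calcium-binding lectin chaperone calreticulin (chr8:84841850-84846934 on GRCm38), had 21115, 21872, 21448 and 20992 CPM at 16 h, against 4550.2, 4675, 5071 and 4489 CPM in control. Every library at 16 h lay above every control library by a wide gap, and calreticulin rose 4.55-fold (log2 change 2.19 ± 0.0447). Hsp90b1, the ER member of the Hsp90 family (chr10:86690209-86705509), had 10710.00, 11194, 10993 and 9951 CPM at 16 h and 390.1, 416, 479.7 and 379 CPM in control. Hyou1, a nucleotide exchange factor for BiP, had 5846, 5488, 5956 and 5713 CPM at 16 h, against 511, 469.6, 541 and 505 CPM in control, and rose 11.4-fold. Neither gene's conditions overlapped.

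The protein disulfide isomerases did not move together. Pdia4 rose 5.702-fold to 3731 ± 140.03 CPM at 16 h, against 654 ± 58.1 CPM in control, and Pdia6 3.45-fold to 5907 ± 100.01 CPM, against 1714 ± 32.6 CPM. Txndc5, another thioredoxin-domain folding enzyme, had 449.99, 431, 457 and 459.9 CPM at 16 h and 1723, 1689.9, 1779.98 and 1689.6 CPM in control. It was lower in each library at 16 h and fell 3.83-fold, while its cytosolic RNA fell 1.62-fold. Serpinh1, the collagen chaperone Hsp47, fell 2.22-fold to 2459 ± 454 CPM, against 5448 ± 951 CPM, with its replicate 3 library the lowest of the 4 in both conditions. BiP cofactors went in both directions. Sdf2l1 had 213, 219.96, 191 and 232 CPM at 16 h, against 26.3, 32.9, 25.4 and 32.3 CPM in control (7.32-fold). Dnajb9, a J-domain partner of BiP, reached 312 ± 22.9 CPM, against 63.6 ± 6.199 CPM (4.91-fold). The J-domain proteins Dnajc10 and Dnajb11 and the BiP exchange factor Sil1 fell, with log2 changes of -1.01 ± 0.0581, -0.29 ± 0.0507 and -1.02 ± 0.0733, and Dnajc1 was not called (0.07 ± 0.0530); Dnajb11 was called higher with coding length offsets (0.14), and Dnajc1 when scaled by library totals (0.15). These 4 were named after their values were seen. Creld2, an ER protein with disulfide isomerase activity, rose 2.83-fold, and its polysome change minus its cytosolic change was -1.09 ± 0.0721 on the log2 scale. The prolyl isomerases, named after their values were seen, had log2 changes of -0.81 ± 0.0374, -1.68 ± 0.0975 and -1.84 ± 0.0723, in the order given above. Adjusted p for the 10 genes named by rule with values in the chaperone paragraphs ran from 1.13e-22 to 9.29e-06 (edgeR's quasi-likelihood test, Benjamini-Hochberg). Small p or large change was the ground for most of these choices, so the range describes the choice.

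**Figure D2:**
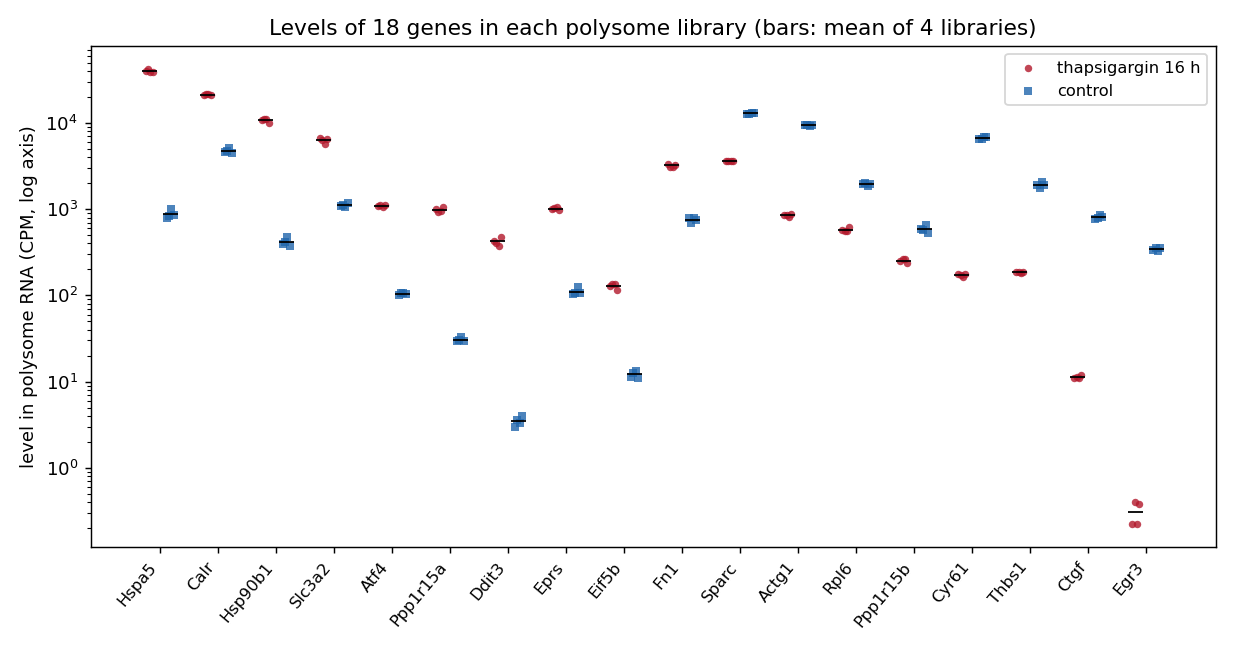
Level in polysome RNA (CPM, log axis) of 18 genes in each of the 4 libraries at 16 h (red circles) and the 4 control libraries (blue squares); bars are means of 4. In all 18 genes the conditions do not overlap, as in 77.7% of all genes tested. The gap is widest for Ddit3 among the genes that rose and for Egr3 among those that fell.

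The factors of the integrated stress response had 12 higher and 1 lower members out of 15, with a median log2 change of 1.70, against 0.76 for the same list in cytosolic RNA. The member that fell was Ppp1r15b, which encodes the constitutive subunit that directs phosphatase to eIF2. It had 248, 263, 264 and 236 CPM at 16 h and 584, 568, 651 and 526 CPM in control, and fell 2.31-fold. Its stress-induced counterpart Ppp1r15a had 1013, 933, 945 and 1052 CPM at 16 h, against 29.2, 30.1, 33.3 and 29.2 CPM in control. The conditions overlapped for neither subunit, and the order of the 2 conditions was opposite between them. Among the bZIP transcription factors, Atf4 had 1091, 1106, 1060.2 and 1127 CPM at 16 h and 101.3, 105.6, 107.7 and 104.5 CPM in control. Ddit3, which encodes CHOP, had 431, 402, 376 and 480.2 CPM at 16 h and 3.01, 3.55, 3.35 and 3.95 CPM in control. Atf3, a partner and target of both, had 383, 386, 401 and 405 CPM at 16 h and 34.5, 33.4, 39.6 and 33.4 CPM in control and rose 11.2-fold. All 4 libraries at 16 h were higher for each of these factors. Atf5, another bZIP factor with upstream open reading frames, rose 4.31-fold in polysomes but 1.18-fold in the cytosol, a difference of 1.83 ± 0.121 on the log2 scale. Nupr1, a small chromatin-associated stress protein, rose 5.19-fold.

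Of the kinases that phosphorylate eIF2, PKR changed most. Eif2ak2, which encodes PKR, an interferon-induced sensor of double-stranded RNA, rose 4.49-fold and was named after its value was seen. Eif2ak3, which encodes PERK, had 114.9, 117.5, 116.6 and 113.3 CPM at 16 h and 107.9, 102.2, 112.5 and 101.5 CPM in control. The 16 h values lay close above those of control, the change was 0.12 ± 0.0458 on the log2 scale, it was called lower with coding length offsets (-0.44), and it was not called without control replicate 2 (0.11) or 4 (0.10). Cebpb, a partner of CHOP, overlapped between conditions, with 14.2, 16.9, 10.9 and 15.3 CPM at 16 h and 11.5, 16.4, 9.96 and 17.3 CPM in control, and was not called (adjusted p 0.778, Benjamini-Hochberg, edgeR's quasi-likelihood test), although it was called higher with coding length offsets (log2 change 0.57) and with GC offsets (0.56). In the IRE1, XBP1 and ATF6 branches 7 of 12 members rose and 5 fell, with a median log2 change of 0.22. Over all genes 42.3% rose and 42.9% fell. Atf6 itself rose 4.01-fold to 559.8 ± 26.6 CPM, against 139.6 ± 7.76 CPM, Ern1, which encodes IRE1, 2.69-fold, and Xbp1 1.65-fold. Creb3l1, an ER-anchored factor of the ATF6 family that drives collagen secretion, went the other way. It had 34.8, 29.9, 24.03 and 33.5 CPM at 16 h, against 326, 330.3, 255 and 371 CPM in control, and fell 10.5-fold. Mbtps1, the protease that activates ATF6 and the sterol factor SREBP, fell 2.13-fold, and Creb3, another ER-anchored factor, 1.81-fold.

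Genes known as targets of ATF4 and CHOP had 32 higher and 7 lower members out of 40, with a median log2 change of 1.02 in polysome RNA and 1.18 in cytosolic RNA. The list took 2.86 ± 0.0785% of the counts at 16 h and 1.25 ± 0.0181% in control. Aldh1l2, a mitochondrial folate enzyme, had 1528, 1563, 1627 and 1503 CPM at 16 h, against 159, 155, 179 and 156 CPM in control (9.58-fold). Ndrg1, a stress-induced cytoplasmic protein, had 642, 641, 649.9 and 641 CPM at 16 h and 104.3, 103.7, 109.1 and 106.2 CPM in control (6.08-fold). In neither did the conditions overlap. Chac1, which degrades glutathione, rose 7.88-fold to 231 ± 28.2 CPM, against 29.3 ± 3.5003 CPM. Smaller rises were those of Sesn2, an inhibitor of the kinase complex mTORC1 (2.503-fold), Vegfa, an angiogenic factor (1.499-fold), Asns, asparagine synthetase (1.56-fold), and Trib3, a pseudokinase (1.501-fold). For Trib3 the cytosolic change was larger, 3.54-fold, and the difference was -1.30 ± 0.195 on the log2 scale. Gdf15, a stress cytokine, was at 2.56, 1.96, 1.05 and 2.404 CPM at 16 h and 4.18, 5.52, 2.05 and 6.497 CPM in control. Its conditions overlapped, and its call, a fall of 2.29-fold, was lost with coding length offsets (log2 change -0.69).

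Aminoacyl-tRNA synthetases, which charge tRNAs with amino acids, rose nearly as a family. Of the 20 cytosolic enzymes 18 rose and 1 fell, with a median log2 change of 1.46, and their share of the counts was 1.79 ± 0.00785% at 16 h and 0.594 ± 0.0163% in control. Eprs, the joint glutamyl- and prolyl-tRNA synthetase (chr1:185363044-185428360), had 996, 1026, 1059.8 and 978 CPM at 16 h and 104.9, 106.95, 126.1 and 105.7 CPM in control. Lars, for leucine, had 521, 528, 544 and 509 CPM at 16 h and 60.97, 59.95, 69.98 and 60.3 CPM in control. The 16 h libraries lay far above control for both, 9.15-fold and 8.37-fold. Tars, for threonine, rose 6.24-fold, Rars, for arginine, 5.86-fold, Wars, for tryptophan, 5.51-fold, and Aars, for alanine, 5.12-fold. The polysome rise exceeded the cytosolic rise for Eprs by 2.15 ± 0.0930 and for Lars by 1.94 ± 0.0911 on the log2 scale, whereas Wars had -0.14 ± 0.0879, which was not called. Mars, for methionine, was the member that fell (log2 change -0.35 ± 0.0424; not called with GC offsets, -0.06), and Hars, for histidine, was not called (-0.05 ± 0.0379); this pair was named after the values were seen. Adjusted p of the 6 named by rule ran from 5.59e-21 to 2.61e-19 (edgeR's quasi-likelihood test, Benjamini-Hochberg). The rules pick mainly members with the smallest p, so this range describes the choice.

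Amino acid supply was divided, as were all genes tested (42.3% rose and 42.9% fell). Plasma membrane amino acid transporters had 11 higher and 8 lower members out of 21, with a median log2 change of 0.28. Slc3a2, the heavy chain shared by several exchangers (chr19:8706882-8723369), had 6637, 6265, 5755 and 6561 CPM at 16 h and 1082, 1109, 1061 and 1190.4 CPM in control. Slc7a2, a carrier of cationic amino acids, had 503, 504, 504 and 461 CPM at 16 h and 90.6, 94.7, 104.8 and 89.04 CPM in control. Slc1a3, a glutamate and aspartate transporter, had 46.3, 44.4, 44.9 and 45.1 CPM at 16 h and 388, 393, 451 and 379 CPM in control. No overlap was seen: the heavy chain rose 5.68-fold and the cationic carrier 5.202-fold, while the glutamate transporter fell 8.92-fold. Slc7a1, a second cationic carrier, rose 2.14-fold, and the cystine exchanger Slc7a11 2.07-fold, although its cytosolic RNA was not called (log2 change -0.04 ± 0.0847). Slc38a4 fell 2.91-fold.

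Serine and one-carbon metabolism had 9 higher and 5 lower members out of 14, with a median log2 change of 0.77. Mtr, methionine synthase, had 79.1, 84.2, 85.4 and 79.6 CPM at 16 h and 7.81, 7.43, 8.17 and 7.33 CPM in control and rose 10.7-fold, against 2.29-fold in cytosolic RNA. Mthfd1, a cytosolic folate enzyme, rose 6.59-fold and its mitochondrial relative Mthfd1l 4.73-fold. Tyms, thymidylate synthase, was lower in all libraries at 16 h, with 29.8, 32.4, 32.1 and 32.7 CPM, against 134.1, 141.5, 139.6 and 131.6 CPM in control, and fell 4.31-fold.

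ER quality control and transport changed in both directions, as did all genes tested (42.3% rose and 42.9% fell). ER-associated degradation had 11 higher and 8 lower members out of 23 tested, with a median log2 change of 0.12. Translocation and N-glycosylation had 16 higher and 19 lower members out of 38, with a median of -0.09. ER to Golgi transport had 22 higher and 14 lower members out of 38, with a median of 0.42. Vcp, the ATPase that extracts misfolded proteins from the ER membrane, had 1496, 1465, 1510.05 and 1458 CPM at 16 h and 302, 292, 363 and 319 CPM in control. Herpud1, which assembles the degradation complex, had 5558, 5316, 5302 and 5623 CPM at 16 h and 1207, 1195, 1191 and 1207 CPM in control. Sel1l, the adaptor of the ubiquitin ligase of that complex, rose 3.72-fold to 626 ± 15.6 CPM, against 168 ± 7.51 CPM. Each was higher in all 4 libraries at 16 h, Vcp by 4.65-fold and Herpud1 by 4.54-fold. The cytosolic changes of this pair stood in the other order, 1.52-fold and 9.895-fold. Among translocation genes the signal recognition particle subunits Srp54a and Srp68 rose 3.79-fold and 2.36-fold. Tusc3, an oligosaccharyltransferase subunit, had 21.9, 22.7, 20.1 and 19.7 CPM at 16 h and 101.5, 112.2, 124.3 and 102.1 CPM in control. It fell 5.21-fold, Ssr4, a subunit of the translocon-associated complex, 2.81-fold, and Ddost, another oligosaccharyltransferase subunit, 2.23-fold.

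In vesicle transport the coat protein genes named by rule rose. Sec23b, a subunit of the COPII coat that buds from the ER (chr2:144556229-144590749), had 372, 374, 379.7 and 371 CPM at 16 h and 33.1, 33.4, 36.6 and 33.8 CPM in control, without overlap, and rose 10.9-fold. Its partner Sec24d rose 4.71-fold to 633 ± 19.1 CPM, against 134.3 ± 6.95 CPM. The subunits Copa and Copg1 of the COPI coat, which returns proteins to the ER, rose 5.43-fold and 4.02-fold, with 1.53-fold and 1.38-fold in cytosolic RNA. Kdelr1, the receptor that retrieves ER residents carrying the KDEL signal, fell instead: it had 87.99, 86.97, 82.04 and 86.8 CPM at 16 h and 386, 403, 399 and 396 CPM in control (4.61-fold).

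Of 18 tested members of the ER calcium handling list 8 rose and 8 fell, with a median log2 change of 0.12. These counts lie near the shares over all genes (42.3% rose and 42.9% fell). Atp2a2, the widely expressed ER pump, had 2484, 2409, 2557 and 2279 CPM at 16 h and 779.8, 743, 865 and 772 CPM in control (3.08-fold). Atp2a3, another pump isoform, had 73.5, 65.3, 60.2 and 68.6 CPM at 16 h, against 1.796, 1.81, 2.08 and 2.69 CPM in control. The 16 h libraries were higher for both pumps, and the second rose 31.7-fold from a low level. Stim2, the ER sensor that opens store-operated channels, had 13.9, 14.9, 13.8 and 14.1 CPM at 16 h and 72.5, 70.5, 69.98 and 66.5 CPM in control and fell 4.93-fold. Its relative Stim1 fell 2.19-fold, and Tmbim6, a calcium leak protein of the ER membrane, 4.51-fold. The inositol trisphosphate receptors Itpr1 and Itpr2, which release calcium from the ER, rose 2.92-fold and 3.54-fold, while their relative Itpr3 overlapped between conditions and was not called (0.09 ± 0.0965 on the log2 scale; called lower with coding length offsets, -0.88, and higher with GC offsets, 0.57). Another release channel gene, Ryr1, rose 2.47-fold to 1.53 ± 0.0928 CPM, against 0.623 ± 0.145 CPM, a call that was lost with coding length offsets (log2 change 0.13). Stim1, Tmbim6, Ryr1 and the Itpr genes were named after their values were seen. Sdf4, a calcium-binding protein of the Golgi lumen, fell 2.82-fold.

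**Figure D3:**
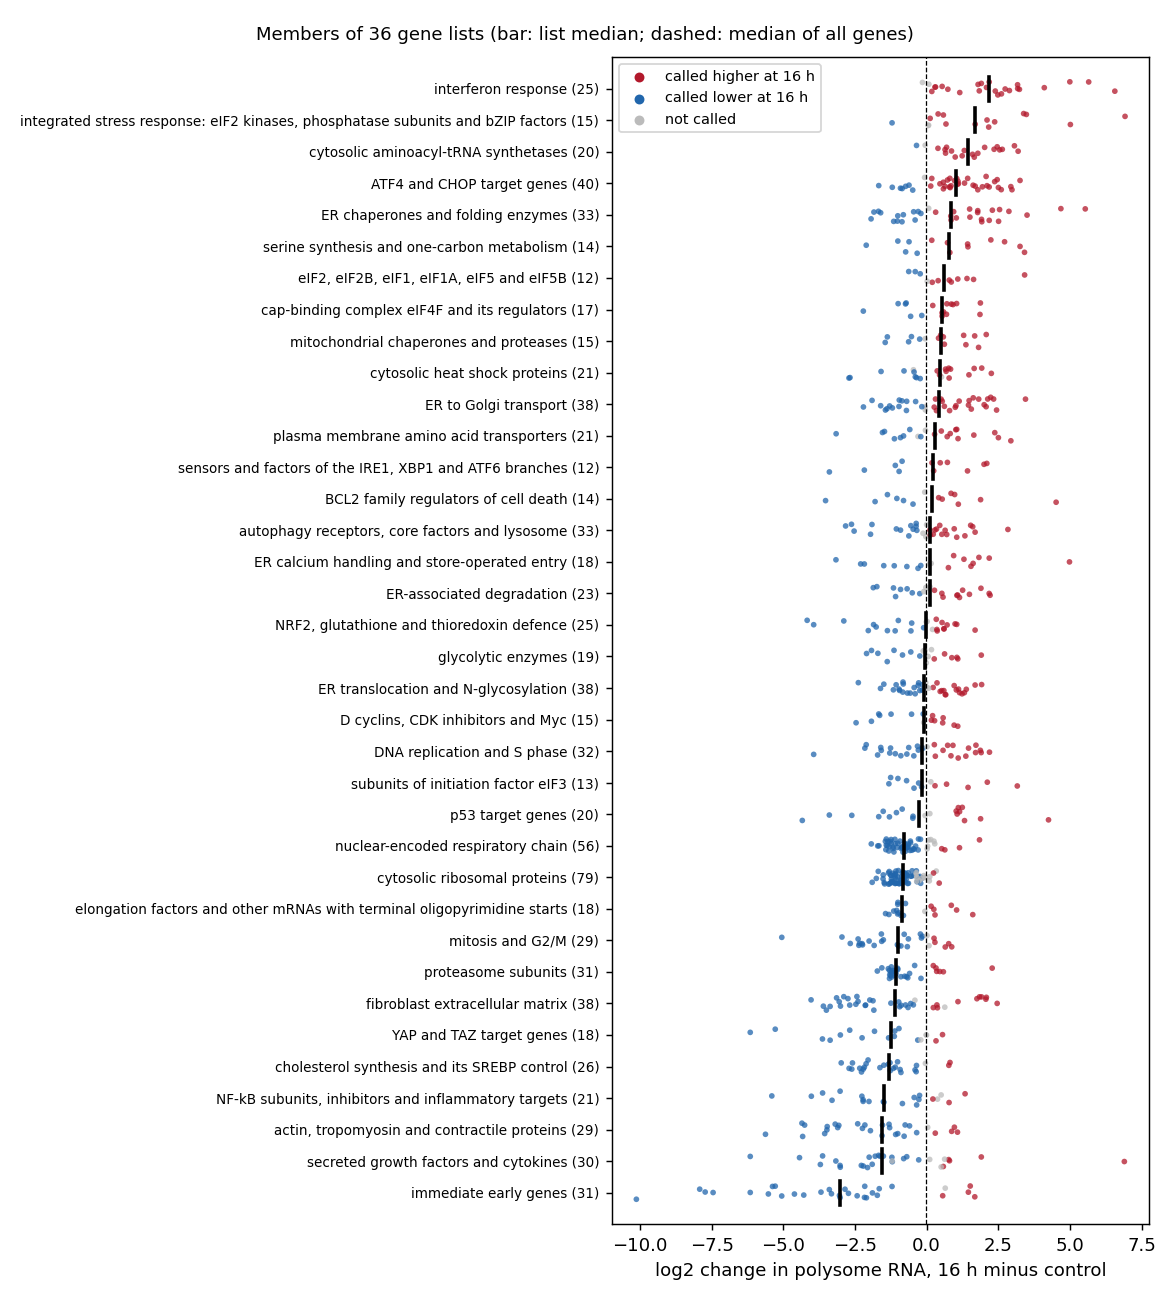
Log2 change in polysome RNA, 16 h minus control (horizontal axis), of each tested member of 36 gene lists, with the number tested in brackets; bars are list medians and the dashed line is the median of all genes. Interferon response genes have the highest median (2.18) and immediate early genes the lowest (-3.02), and most lists hold members on both sides of 0.

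Cytosolic ribosomal protein mRNAs had 65 lower and 2 higher members out of 79, Rps12 and Rps20. The call of Rps12 was lost without control replicate 3 or 16 h replicate 2, and Rps20 was called lower with GC offsets (log2 change -0.36). The list median was -0.83 in polysome RNA and 0.45 in cytosolic RNA, where 50 rose and 4 fell. The 79 genes took 2.38 ± 0.119% of the counts at 16 h and 4.43 ± 0.179% in control. Rps4x, of the small subunit, had 868, 915, 937 and 887 CPM at 16 h and 3205, 3354, 3765 and 3120.4 CPM in control. Rpl6, of the large subunit, had 577, 564, 554 and 613 CPM at 16 h and 1945, 1988, 1874 and 1984 CPM in control. All 4 libraries at 16 h were lower in each, by 3.73-fold and 3.37-fold. The cytosolic RNA of Rpl6 rose 1.43-fold, and the difference between the kinds of RNA was -2.33 ± 0.0596 on the log2 scale. Rpl7a fell 3.22-fold, Rpl14 2.52-fold, Rps6 2.497-fold and Rps7 2.34-fold. Reads of ribosomal protein genes can be shared with processed pseudogenes, so single values are uncertain.

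Other mRNAs with terminal oligopyrimidine starts, among them elongation factors, had 11 lower and 6 higher members out of 18. Eef1b2, an exchange factor for the elongation factor eEF1A, fell 2.699-fold to 418 ± 13.3 CPM, against 1128 ± 66.8 CPM, while its cytosolic RNA rose 1.57-fold. Eef1d, of the same complex, fell 2.06-fold and Naca, a chaperone of nascent chains, 2.22-fold. Pabpc1, the cytoplasmic poly(A)-binding protein, rose 2.07-fold.

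Subunits of the initiation factors moved in both directions, as did all genes tested (42.3% rose and 42.9% fell). Subunits of eIF3, the scaffold that loads mRNA onto the small ribosomal subunit, had 5 higher and 7 lower members out of 13, while all 13 rose in cytosolic RNA. Eif3a, its largest subunit, had 564, 567, 605 and 549 CPM at 16 h and 61.2, 61.8, 73.8 and 57.96 CPM in control. Eif3f had 94.5, 98.8, 96.2 and 96.4 CPM at 16 h and 238, 234, 256 and 232 CPM in control. Neither overlapped, and Eif3a rose 8.97-fold while Eif3f fell 2.49-fold. Eif3c rose 4.34-fold, Eif3d 2.73-fold, and Eif3h fell 2.0004-fold. In the cap-binding group 11 of 17 rose and 6 fell. Eif4g1, the scaffold of that complex, had 889, 865, 827 and 868 CPM at 16 h and 235, 225, 243 and 236 CPM in control (3.67-fold). Eif4e, which binds the cap, had 67.2, 71.5, 73.2 and 70.2 CPM at 16 h and 141.98, 137.4, 159 and 122.96 CPM in control, and fell 1.99-fold. Eif4g3 rose 3.64-fold and Eif4b, a helicase cofactor, 1.82-fold. The list of eIF2, its exchange factor eIF2B and the start-site and subunit-joining factors eIF1, eIF1A, eIF5 and eIF5B had 8 higher and 3 lower members out of 12, with a median of 0.60. The list's member with the largest rise was Eif5b, a GTPase that joins the ribosomal subunits. It had 129.1, 137.2, 133.9 and 116.7 CPM at 16 h and 11.4, 12.7, 13.4 and 10.9 CPM in control, a rise of 10.7-fold, with 2.21-fold in cytosolic RNA. Eif5 rose 3.11-fold, Eif2b3 2.66-fold, Eif1 1.82-fold and Eif2s2 1.73-fold.

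Proteasome subunits had 25 lower and 6 higher members out of 31, with a median of -1.07 in polysome RNA and 0.21 in cytosolic RNA. Psmb1, of the catalytic core, had 176, 184, 175 and 184 CPM at 16 h and 557, 622, 599.5 and 589 CPM in control. Psmd1, a large scaffold subunit of the regulatory cap, had 309.9, 310.3, 326 and 299 CPM at 16 h and 60.7, 62.8, 68.6 and 62.99 CPM in control. The conditions were apart in both, and the core subunit fell 3.29-fold while the scaffold subunit rose 4.88-fold. Psmb3 and Psmb4, also of the core, fell 2.95-fold and 2.46-fold, with no call in cytosolic RNA (0.07 ± 0.0534 and 0.01 ± 0.0447 on the log2 scale). Of the list, all 7 alpha subunits (Psma) and all 7 beta subunits (Psmb) fell, by 1.51-fold (Psmb2) to 3.29-fold (Psmb1). The 6 that rose were subunits of the regulatory cap. Among members that are neither alpha nor beta subunits, more fell than rose, so falling was not particular to the core. This pattern was seen after the values were known. Nuclear-encoded subunits of the respiratory chain had 46 lower and 4 higher members out of 56, with a median of -0.78. Ndufa9, of complex I, had 141.7, 143.3, 157 and 152 CPM at 16 h and 472, 482, 529 and 453 CPM in control and fell 3.26-fold. Ndufs1, the largest subunit of complex I, rose 3.59-fold to 179 ± 7.16 CPM, against 49.8 ± 4.74 CPM. Cyc1, of complex III, fell 2.55-fold and Atp5b, of the ATP synthase, 2.26-fold.

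Chaperones outside the ER were mixed, as were all genes tested (42.3% rose and 42.9% fell). Mitochondrial chaperones and proteases had 9 higher and 5 lower members out of 15. Hspd1, the mitochondrial Hsp60, had 1614, 1756, 1668 and 1531 CPM at 16 h and 349.7, 386, 448 and 369 CPM in control (4.23-fold). Lonp1, a matrix protease, rose 3.52-fold, Trap1, the mitochondrial Hsp90, 3.2001-fold and Hspa9, the mitochondrial Hsp70, 2.45-fold, and the protease gene Htra2 fell 2.72-fold. Cytosolic heat shock proteins had 11 higher and 8 lower members out of 21. Hsph1, an exchange factor for Hsp70, rose 4.78-fold to 250.1 ± 11.1 CPM, against 52.3 ± 6.24 CPM, and its relative Hspa4 3.79-fold. Dnajb1, the J-domain partner of Hsp70 that is induced by heat, fell 3.01-fold and the small heat shock protein gene Cryab 6.37-fold.

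Autophagy and lysosome genes had 16 higher and 13 lower members out of 33, with a median log2 change of 0.12. Over all genes 42.3% rose and 42.9% fell. Nbr1, a receptor for ubiquitinated cargo, had 371, 383, 384 and 371 CPM at 16 h and 52.5, 51.6, 57.3 and 49.8 CPM in control. Sqstm1, the receptor p62, had 4059, 3840.3, 3689 and 4094 CPM at 16 h and 1213, 1217, 1157 and 1266 CPM in control. Ctsb, which encodes the lysosomal protease cathepsin B, had 302, 302, 316 and 308 CPM at 16 h and 2162, 2123, 2345 and 2077 CPM in control. These cargo receptors rose 7.15-fold and 3.23-fold and the protease fell 7.09-fold, each without overlap. Ctsd, cathepsin D, fell 3.88-fold, the lysosomal membrane protein gene Lamp1 5.77-fold, and Fam134c, a receptor for autophagy of the ER, 6.15-fold. Fam134b, Tex264 and Ccpg1, which also encode ER-phagy receptors, fell 3.75-fold, 1.88-fold and 1.54-fold. Atg12 and Atg7, of the machinery that lipidates LC3, rose 3.05-fold and 2.07-fold. These 5 were named after their values were seen, and the ER-phagy receptors given are not the whole family. Of the NRF2, glutathione and thioredoxin genes 10 of 25 rose and 12 fell, near the shares over all genes. Their median log2 change was -0.01, and changes ran from -4.17 to 1.69. The members given next were chosen by smallest p and all fell, and members that rose are not shown. Gstm1, a glutathione transferase, had 8.96, 8.26, 8.67 and 8.17 CPM at 16 h and 152, 154, 148.3 and 158 CPM in control (17.97-fold lower), and Mgst1, Nqo1 and Gsr fell 15.3-fold, 7.404-fold and 4.096-fold. Glycolytic enzymes had 6 higher and 8 lower members out of 19, with a median of -0.06. Hk2, a hexokinase, rose 3.75-fold to 158 ± 5.17 CPM, against 42.2 ± 1.99 CPM, with no call in cytosolic RNA (0.07 ± 0.0424 on the log2 scale). Pfkp rose 2.13-fold, and Tpi1, Ldhb and Pgam1 fell 3.25-fold, 3.79-fold and 2.199-fold.

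Actin and contractile protein genes had 24 lower and 4 higher members out of 29, with a median of -1.55, and took 0.753 ± 0.0255% of the counts at 16 h and 3.20 ± 0.102% in control. Actg1, cytoplasmic gamma-actin (chr11:120345690-120348542), had 867, 847, 819 and 887 CPM at 16 h and 9544, 9419, 9297 and 9571 CPM in control. Acta2, smooth muscle actin, had 107.3, 100.9, 114.9 and 115.5 CPM at 16 h and 2239.6, 2111, 2255 and 2179 CPM in control. Tpm1, a tropomyosin, had 249.6, 272, 251 and 256 CPM at 16 h and 2836, 2898, 2961 and 2762 CPM in control. In all 3 the 16 h libraries lay far under control, by 11.1-fold, 20.03-fold and 11.1-fold. Tagln, an actin-binding protein, fell 11.8-fold, Myl9, a myosin light chain, 19.1-fold, and Actb, whose reads may be shared with Actg1 and pseudogenes, 8.59-fold. Targets of the coactivators YAP and TAZ, which respond to cell tension, had 13 lower and 2 higher members out of 18. Ankrd1 had 50.6, 49.8, 47.9 and 49.7 CPM at 16 h and 387, 401, 418 and 388 CPM in control and fell 8.05-fold. Axl, a receptor kinase, fell 12.4-fold. Adjusted p of the 8 genes named by symbol ran from 6.08e-24 to 5.61e-21 (edgeR's quasi-likelihood test, Benjamini-Hochberg). They were chosen mainly for small p or large change, so the range describes the choice.

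Matrix genes had 26 lower and 10 higher members out of 38 tested, with a median of -1.11 in polysome RNA and -1.80 in cytosolic RNA. Their share was 1.82 ± 0.0938% of the counts at 16 h and 4.04 ± 0.0543% in control. Sparc (chr11:55394500-55423183) had 3573, 3639, 3591 and 3623 CPM at 16 h and 12713, 12790.2, 13200.5 and 12948 CPM in control. Fn1, fibronectin (chr1:71585520-71653200), had 3349.6, 3116, 3122 and 3280.1 CPM at 16 h and 799, 697, 786 and 751 CPM in control. Thbs1, thrombospondin-1, had 189, 186, 181 and 187 CPM at 16 h and 1919, 1781, 2077 and 1884 CPM in control. The conditions did not overlap in these 3: Sparc fell 3.58-fold, Fn1 rose 4.24-fold and Thbs1 fell 10.3-fold. Cytosolic RNA of Fn1 fell 1.07-fold, so that the kinds of RNA differed by 2.14 ± 0.0610 on the log2 scale. The metalloproteinase inhibitors Timp1, Timp2 and Timp3 fell 8.82-fold, 11.3-fold and 12.1-fold, and the metalloproteinase gene Mmp2 5.39-fold. Lox, which cross-links collagen, had 1068, 1101, 1103 and 957 CPM at 16 h and 5582, 5528, 6069 and 5019.8 CPM in control, and Bgn, the proteoglycan biglycan, 918, 930.01, 969 and 911 and 5154, 4973, 5427 and 5068 CPM. Both fell, 5.25-fold and 5.53-fold. Col1a1, a chain of type I collagen, had 1658, 1459.6, 868 and 1709.9 CPM at 16 h and 1859.9, 1913, 1342 and 2443 CPM in control. Its conditions overlapped, replicate 3 being the lowest library of each, and it was not called (log2 change -0.41 ± 0.228), while without control replicate 3 it was called lower (-0.54).

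Immediate early genes, the first to be transcribed after growth or stress signals, had the lowest list median. Of 31, 26 fell and 4 rose, the median was -3.02, and the share of counts was 0.132 ± 0.0150% at 16 h and 1.13 ± 0.0641% in control. Cyr61, a secreted matrix-associated signal (chr3:145646976-145649981), had 175, 171, 165 and 176 CPM at 16 h and 6469, 6552, 6839.5 and 6859 CPM in control. Ctgf, its relative, had 11.01, 11.4, 10.9 and 11.9 CPM at 16 h and 768, 788, 853 and 809.6 CPM in control. Egr3, a zinc finger factor (chr14:70077203-70082614), had 0.225, 0.399, 0.222 and 0.376 CPM at 16 h and 337, 353, 327 and 353 CPM in control. The gap between conditions exceeded any spread within them, with falls of 38.9-fold, 71.1-fold and 1117-fold. Egr2 had 0.169, 0.184, 0.194 and 0.261 CPM at 16 h and 44.6, 44.1, 41.6 and 43.7 CPM in control, and Fos, of the AP-1 factor, 0.169, 0.276, 0.35996 and 0.463 and 55.5, 56.4, 51.1 and 61.2 CPM. They fell 212-fold and 175-fold. Myc, a growth factor-induced transcription factor of the same list, rose 1.48-fold in polysome RNA, with 679.5, 627, 489.9 and 658 CPM at 16 h and 405, 419.5, 359 and 479 CPM in control, replicate 3 again the lowest of each.

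Secreted growth factors and cytokines had 21 lower and 5 higher members out of 30 tested, with a median of -1.57. Cxcl12, a chemokine of stromal cells, had 61.7, 63.9, 63.8 and 62.4 CPM at 16 h and 783, 766, 814 and 750.4 CPM in control. It fell 12.4-fold, without overlap. Tgfb3 fell 13.1-fold, Hbegf, a ligand of the EGF receptor, 8.97-fold and Ereg, another such ligand, 21.6-fold. NF-kB subunits, inhibitors and inflammatory targets had 16 lower and 3 higher members out of 21 tested. Cxcl1, a chemokine, had 1.92, 2.18, 2.298 and 1.62 CPM at 16 h and 81.9, 90.95, 84.5 and 81.8 CPM in control and fell 42.2-fold. Lif fell 8.1002-fold, Ccl7 9.85-fold and Csf1 2.85-fold.

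Interferon response genes had 23 higher and 0 lower members out of 25, with a median of 2.18 in polysome RNA and 1.53 in cytosolic RNA. Their share of the counts was small, 0.103 ± 0.00167% at 16 h and 0.0395 ± 0.000410% in control. Stat2, of the factor that interferons activate, had 51.9, 48.9, 48.3 and 48.3 CPM at 16 h and 4.87, 4.89, 5.63 and 5.48 CPM in control. Its partner Irf9 had 47.04, 47.9, 48.6 and 47.4 CPM at 16 h, against 7.12, 6.26, 6.09 and 6.32 CPM in control. The 16 h libraries were several-fold higher in both, by 9.44-fold and 7.41-fold. Usp18, a protease that removes ISG15 from proteins, had 53.6, 53.3, 57.2 and 52.2 CPM at 16 h and 1.35, 1.51, 1.92 and 1.95 CPM in control (31.9-fold), and Ddx58, the RNA sensor RIG-I, rose 5.599-fold. For Ddx58 and Stat2 the polysome rise exceeded the cytosolic rise, by 1.59 ± 0.0942 and 1.97 ± 0.0896 on the log2 scale. The leukocyte marker sums given above were lower at 16 h. Of the 9 leukocyte markers 4 could be tested, of which 3 fell and 1 was not called. Itgam and Cd3e were at 0 in all 8 libraries. Whether such cells had a part in the interferon values was not tested.

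Mitosis and G2/M genes had 22 lower and 5 higher members out of 29, with a median of -0.98; in cytosolic RNA all 29 fell. Ccnb2, a cyclin of mitosis, had 9.01, 8.69, 9.11 and 9.296 CPM at 16 h and 297, 297, 321 and 284 CPM in control and fell 33.2-fold. Ccnb1 fell 5.14-fold, Birc5, survivin, 4.76-fold and Cdc25b, an activator of mitotic kinase, 4.71-fold. DNA replication genes had 14 higher and 17 lower members out of 32, with a median of -0.14. Over all genes 42.3% rose and 42.9% fell. Cdc6, which loads the replicative helicase, had 57.9, 59.6, 64.4 and 56.99 CPM at 16 h and 12.5, 13.99, 13.02 and 12.6 CPM in control. Tk1, thymidine kinase, had 5.94, 5.07, 5.07 and 5.47 CPM at 16 h and 82.9, 81.7, 75.8 and 90.4 CPM in control. Cdc6 rose 4.58-fold and Tk1 fell 15.3-fold, each without overlap. The helicase subunits Mcm4 and Mcm7 rose 3.67-fold and 2.76-fold. Ccnd1, cyclin D1, a short-lived activator of the cell cycle, had 14.2, 16.3, 13.2 and 14.9 CPM at 16 h and 81.3, 81.01, 74.3 and 85.7 CPM in control (5.504-fold lower). Cdkn1b, the inhibitor p27, rose 1.95-fold. Targets of p53 had 8 higher and 10 lower members out of 20, with a median of -0.26. Gadd45a, a stress protein of that list, had 218, 214, 168 and 216 CPM at 16 h and 10.1, 10.9, 9.99 and 11.8 CPM in control (19.1-fold), and Btg2 and Fas fell 10.5-fold and 20.2-fold. Trp53 itself is listed at 0 in every library.

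Regulators of cell death of the BCL2 family had 7 higher and 6 lower members out of 14 tested, with a median of 0.18. Over all genes 42.3% rose and 42.9% fell. Among those that promote death, Pmaip1 had 5.72, 6.88, 6.89 and 5.502 CPM at 16 h and 1.24, 1.84, 1.95 and 1.71 CPM in control. Bcl2l11, which encodes BIM, had 20.9, 19.2, 20.3 and 20.1 CPM at 16 h and 10.9, 9.64, 10.8 and 9.55 CPM in control. Bmf had 0.929, 1.17, 0.969 and 1.16 CPM at 16 h and 12.2, 12.8, 11.5 and 12.2 CPM in control. Pmaip1 and Bcl2l11 were higher in every library at 16 h (3.69-fold and 1.97-fold), and Bmf was lower in every library (11.5-fold). Bcl2l1, which protects cells, fell 3.47-fold and Bid rose 1.81-fold. Cholesterol synthesis genes had 23 lower and 2 higher members out of 26, with a median of -1.31. Of this list, Hsd17b7, Ebp, Acat2 and Pmvk fell 6.52-fold, 4.83-fold, 4.63-fold and 4.32-fold.

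The most extreme changes among genes with a mean of at least 5 CPM and no overlap between conditions included genes near 0 in a condition. Avil, an actin-binding protein (chr10:127000709-127020994), had 64.5, 61.2, 57.8 and 64.1 CPM at 16 h and 0.311, 0.402, 0.228 and 0.1796 CPM in control and rose 221-fold, against 15.1-fold in cytosolic RNA (difference 3.82 ± 0.195 on the log2 scale). Txnip, a thioredoxin-binding protein, had 583, 587, 606 and 572 CPM at 16 h and 12.6, 14.2, 13.3 and 12.6 CPM in control and rose 44.5-fold. Sspo had 73.5, 59.8, 42.4 and 73.8 CPM at 16 h and 0.276, 0.368, 0.0976 and 0.479 CPM in control. That these values do not overlap between conditions was part of the rule that chose them, and it held for 77.7% of all genes. The spread of Sspo at 16 h was wide, with replicate 3 the lowest. Car6, a secreted carbonic anhydrase, reached 36.2 ± 1.59 CPM, against 0.402 ± 0.105 CPM, Cass4, an adaptor of focal adhesions, 25.2 ± 0.671 CPM, against 0.315 ± 0.0501 CPM, and the interferon-induced Mx2 16.2 ± 0.764 CPM, against 0.314 ± 0.0957 CPM. Ifi44 reached 21.97 ± 0.853 CPM, against 0.231 ± 0.197 CPM, and B4galnt2, a glycosyltransferase, 15.3 ± 1.304 CPM, against 0.112 ± 0.0479 CPM.

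At the other end, Dpt, the matrix protein dermatopontin, had 0.197, 0.215, 0.388 and 0.261 CPM at 16 h and 107.7, 108.6, 118.5 and 106.7 CPM in control (408-fold lower). Arc, an immediate early gene of synapses, had 0.225, 0.338, 0.194 and 0.319 CPM at 16 h and 101.3, 100.2, 73.95 and 117.4 CPM in control. Nr4a1, an orphan nuclear receptor, had 1.72, 1.75, 1.66 and 1.998 CPM at 16 h and 428, 446, 343 and 508 CPM in control. The 16 h values of all 3 were close to 0 beside those of control. Inmt, a methyltransferase, had 0.231 ± 0.118 CPM at 16 h and 34.01 ± 5.105 CPM in control. Esm1, endocan, had 0.0282, 0, 0 and 0.02896 CPM at 16 h and 21.9, 18.1, 21.7 and 18.4 CPM in control, Prss46 0, 0.0307, 0.111 and 0 and 18.2, 18.5, 18.7 and 16.2 CPM, and Cd7 0.141, 0.0614, 0.0277 and 0.02896 and 12.4, 11.1, 10.3 and 10.6 CPM. No fold is given for these last 3, since some libraries held 0 or few counts.

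Cytosolic RNA of the same samples did not always move with polysome RNA. Of 11955 genes tested in both kinds and for their difference, 710 were called higher in polysome RNA and lower in cytosolic RNA, and 751 the other way round. Bclaf1, a nuclear protein of RNA processing, had 69.9, 72.9, 76.4 and 61.6 CPM at 16 h and 12.7, 11.3, 14.1 and 12.5 CPM in control in polysome RNA, and 123.3 ± 13.1 CPM at 16 h and 180.1 ± 19.5 CPM in control in cytosolic RNA. Sf3b1, a core splicing factor, had 223, 237, 242 and 215 CPM at 16 h and 41.04, 40.4, 46.1 and 39.4 CPM in control, and 151 ± 16.1 CPM at 16 h and 180.5 ± 15.6 CPM in control in cytosolic RNA. The polysome values rose without overlap, 5.54-fold and 5.497-fold, and the cytosolic values fell 1.46-fold and 1.195-fold. Simc1, Brd8 and Vps13a did the same, with polysome rises of 5.76-fold, 4.06-fold and 5.69-fold and cytosolic falls of 1.38-fold, 1.64-fold and 1.17-fold. On the opposite side, by the same rule, stood Rpl6, Rps7, Eef1b2, Rps6 and Pgls, a pentose phosphate enzyme whose polysome RNA fell 2.49-fold and cytosolic RNA rose 1.56-fold. Differences on the log2 scale ran from 2.67 (Sf3b1) to 2.97 (Bclaf1) among the first 5 and from -2.33 (Rpl6) to -2.00 (Pgls) among the others.

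**Figure D4:**
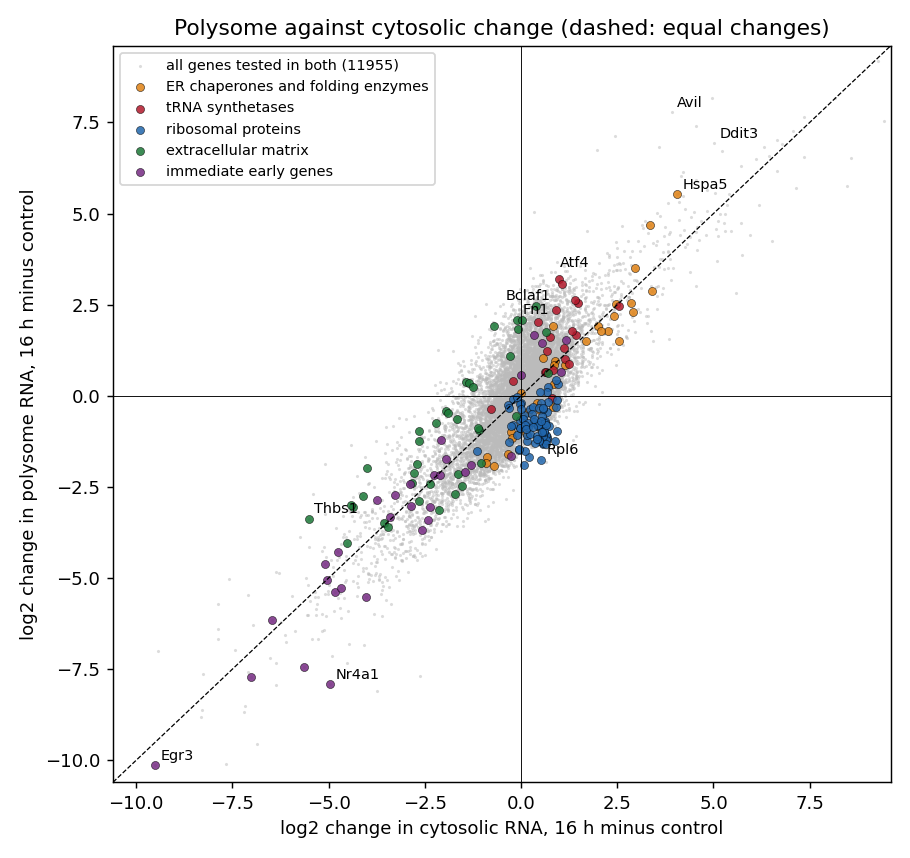
Log2 change in polysome RNA (vertical axis) against that in cytosolic RNA (horizontal axis), 16 h minus control, for 11955 genes tested in both; colours mark 5 gene lists and the dashed line marks equal changes. Most ribosomal protein genes lie to the right of 0 and under 0, matrix genes mostly above the line and ER chaperones mostly under it. Of 33 ER chaperone genes the difference was called lower for 22 and higher for 5.

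Changes in polysome RNA went with coding length. The 1619 genes with coding sequences of 600 to 899 nt had a median log2 change of -0.45, the 3849 genes of 1500 to 2999 nt 0.29, the 1399 genes of 3000 to 5999 nt 0.68 and the 330 genes of 6000 nt and over 1.05. In the shortest class, under 400 nt (509 genes), it was 0.02. Medians of cytosolic RNA in the same classes lay between -0.24 and 0.05. Of genes with at least 6000 nt, 67.9% rose and 20.6% fell, while of those with 600 to 899 nt 24.6% rose and 59.2% fell. The class of 1500 to 2999 nt took 41.0 ± 0.283% of the counts at 16 h and 27.6 ± 0.245% in control, and that of 600 to 899 nt 9.10 ± 0.112% and 15.3 ± 0.185%. The change also went with GC content of the transcript, with medians of 0.43, -0.02 and -0.44 for genes under 47.1%, from there to 53.4% and over it (3974 genes each) in polysome RNA and 0.08, 0.02 and -0.10 in cytosolic RNA. Coding length and GC content moved with the lists described above, and their part in those results was not tested beyond offsets for each: with coding length offsets the median of ribosomal proteins was -0.53, of proteasome subunits -0.55, of tRNA synthetases 1.14 and of matrix genes -1.85, and with GC offsets that of ER chaperones was 0.29.

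**Figure D5:**
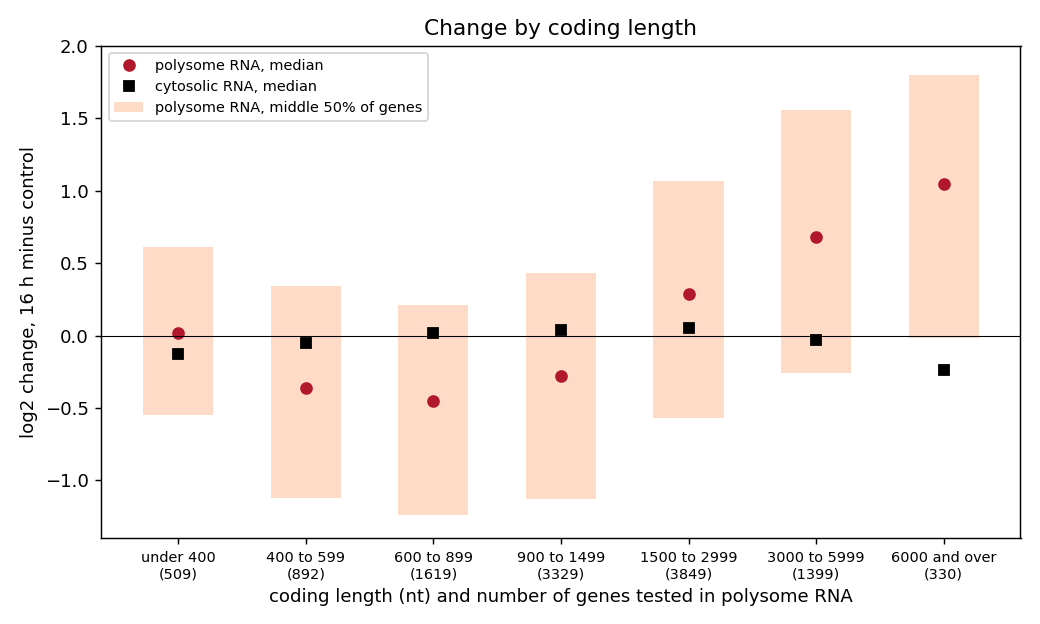
Median log2 change, 16 h minus control, in polysome RNA (red circles) and cytosolic RNA (black squares) for 7 classes of coding length in nt, with the number of genes tested in polysome RNA in brackets; pale bars span the middle 50% of genes in polysome RNA. The polysome median is lowest in the class of 600 to 899 nt and highest in that of 6000 nt and over, while the cytosolic medians stay between -0.24 and 0.05.

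Levels over the 4 conditions are given side by side for a few members, in the order control, 1 h, 16 h and 16 h with the PERK inhibitor; these comparisons share samples, and no test between them is reported. Polysome RNA of Atf4 was 104.8 ± 2.66, 920.3 ± 24.2, 1096 ± 28.1 and 55.1 ± 2.36 CPM, so that 1 h and 16 h were high and the inhibitor group low. Eprs had 110.9 ± 10.2, 788 ± 35.3, 1015 ± 35.8 and 156 ± 4.74 CPM, with the inhibitor group above control here. Hspa5 had 868 ± 93.4, 5604 ± 191, 40292 ± 1522 and 6371 ± 318 CPM, and Sdf2l1 29.2 ± 3.91, 17.3 ± 1.49, 214 ± 17.2 and 224 ± 4.53 CPM, with 16 h and the inhibitor group of Sdf2l1 within their SDs of each other. Thbs1 was at 1915 ± 122.97, 21599.9 ± 92.5, 186 ± 3.75 and 533 ± 14.5 CPM, highest at 1 h, and Egr2 at 43.5 ± 1.33, 510.3 ± 22.3, 0.202 ± 0.0405 and 0.0721 ± 0.0573 CPM. Rpl6 was at 1948 ± 52.7, 513 ± 16.8, 577 ± 25.8 and 1178 ± 22.7 CPM, low at both 1 h and 16 h.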

How the data were processed

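RNA was sequenced from 16 samples of mouse embryonic fibroblasts, 4 per condition, each as cytosolic RNA and as polysome RNA from a 10 to 50% sucrose gradient. The authors deposited a table of raw read counts per gene symbol for all 32 libraries. The submitters' processing notes name HISAT, the build mm10 and DESeq2 1.9.23. How reads were counted, with which annotation and whether by strand, is not given in the sources used here. Columns of other samples numbered 0.

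Levels and tests were computed here in R 4.3.3 (edgeR 4.0.16, which uses limma 3.58.1). Genes that passed filterByExpr (minimum count 10, minimum total 15) were scaled with TMM factors and fitted over all 16 polysome libraries with robust quasi-likelihood (12 residual degrees of freedom), and the 16 h minus control contrast was tested two-sided at an adjusted p of 0.05. The polysome change minus the cytosolic change was fitted over all 32 libraries with the sample as a block. On simulated data with 100 genes changed 2-fold in polysome RNA, 100% were recovered with 9 false calls over 11914 genes, and 98% at 1.5-fold. For the difference from cytosolic RNA it was 99% at 2-fold and 76% at 1.5-fold, with 11 false calls over 12368 genes. The simulation changed only a small set of well-expressed genes, as many up as down, and gave every gene the same spread beyond sampling noise. It therefore does not check the scaling or the calls in data where 85.1% of genes were called. Coordinates, coding lengths and GC content came from GENCODE vM21 on GRCm38 (lengths for 98.9% of tested genes), and promoters from RefSeq. No pair of replicates agreed within sampling noise (chi-square over genes of at least 3.48 per degree of freedom). DESeq2 1.42.0 and other alternatives are given in the closing section.

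The gene lists and members were chosen with earlier results of these data known. Named genes were a preset panel, the 10 highest and 10 lowest changes (mean of at least 5 CPM, no overlap), the 8 largest gains and losses of CPM, up to 5 list members with the smallest p, 5 genes each way with opposite changes in the kinds of RNA, and the genes with sequences shown; others are marked as named after their values were seen, and some genes these rules choose are not reported here. Rows under 186 symbols merge several genes.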

Additional observations from a re-analysis of the deposited data

Results flagged for a closer look

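Among the 4 libraries of a condition, 1 library lay far from the other 3 in 28 of 474 groups of 4 examined for the genes named; chance flags about 1 in 20 such groups. The library was most often control replicate 3, which was the highest of its group for tRNA synthetases, ATF4 targets and others: it had 126.1 CPM for Eprs, where the other 3 control libraries had 104.9 to 106.95 CPM, 69.98 CPM for Lars (59.95 to 60.97), 258 CPM for Rars (222 to 227), 179 CPM for Aldh1l2 (155 to 159), 735 CPM for Asns (659 to 662) and 39.6 CPM for Atf3 (33.4 to 34.5). It was also the highest for Hsph1 (61.5 CPM against 48.02 to 50.2), Mgst1 (133.7 against 114.96 to 117.1), Dpt (118.5 against 106.7 to 108.6), Brd8 (15.98 against 12.1 to 12.3), Itpr1 (44.5 against 38.3 to 38.8), Itpr2 (14.8 against 12.99 to 13.3), Pdgfra (117.6 against 90.9 to 94.3) and Sdf4 (394 against 363 to 368). Control replicate 2 was the lowest for Atg7 (20.1 CPM against 21.9 to 22.2) and the highest for Psmb2 (206 against 190.3 to 192).

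At 16 h, replicate 3 stood apart for Gadd45a (168 CPM against 214 to 218), Rps12 (53.2 against 87.9 to 90.1), Eif3c (827 against 850.3 to 854), Atp5b (1999 against 1944 to 1948) and Ndrg1 (649.9 against 641 to 642). Replicate 2 stood apart for Hspa5 (42546 CPM against 39371 to 39878), Cdc25b (8.53 against 9.63 to 9.802) and Dnajc1 (67.02 against 60.7 to 61.4), replicate 1 for Eif4g3 (59.1 against 53.4 to 54.3) and Stat2 (51.9 against 48.3 to 48.9), and replicate 4 for Slc7a2 (461 against 503 to 504) and Mthfd1l (404 against 418 to 419.8). In each of these genes the gap to control exceeded the deviation of the single library, except for Rps12 and Dnajc1.

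The polysome change minus the cytosolic change is given for 10 genes called in opposite directions in the kinds of RNA. It was 2.97 for Bclaf1, 2.95 for Simc1, 2.70 for Brd8, 2.69 for Vps13a and 2.67 for Sf3b1 on the log2 scale, and -2.33 for Rpl6, -2.15 for Rps7, -2.13 for Eef1b2, -2.01 for Rps6 and -2.00 for Pgls. These genes were chosen for the size of this difference among all genes, so the values describe the choice.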

How the results depend on the processing

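The counts of called genes in polysome RNA, in cytosolic RNA and for their difference stayed within 1.5 times their reported values under every alternative run. In polysome RNA they were 10259 with RLE size factors, 10874 with no filter on low counts, 10217 with DESeq2, 9844 with control and 16 h libraries alone, 10314 scaled by library totals, 10252 with coding length offsets and 10505 with GC offsets, the last of which was chosen after seeing the data, as was the fit without replicate 3 of both conditions (10287). Leaving out 1 library at a time gave 10151 to 10339 in polysome RNA, 9292 to 9707 in cytosolic RNA and 7699 to 8247 for the difference. The pairing of libraries by number was checked by the correlation of their deviations from group means, which was 0.0226, 0.0591, 0.574 and 0.406 for replicates 1 to 4. For libraries with different numbers it ran from -0.51 to 0.312, so replicates 3 and 4 deviated alike in both conditions and replicates 1 and 2 did not. The main fit did not treat the numbers as pairs. A replicate block in polysome RNA gave 10208 calls, and the difference without its block gave 8272. Of 237 genes named and tested, 3 were called in the other direction with coding length offsets, Eif2ak3 (-0.44), Col3a1 (-0.37) and Dnajb11 (0.14), and 1 with GC offsets, Rps20 (-0.36). The eIF3 median changed sign to 0.15 with coding length offsets, and that of D cyclins, CDK inhibitors and Myc to 0.36. Itpr3, otherwise not called, was called lower with coding length offsets (-0.88) and higher with GC offsets (0.57). Cebpb became called higher with either offset (0.57 and 0.56) and Col1a1 called lower with coding length offsets (-1.13). The causes were not tested. Genes under 1 CPM in a condition rest on few counts, which limits the precision of their folds.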

Other observations

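Genes used as markers of fibroblasts had 7 lower and 2 higher members out of 10 tested in polysome RNA, while all 10 fell in cytosolic RNA. S100a4, a small calcium-binding protein, averaged 6.53 ± 0.468 CPM at 16 h and 168 ± 15.8 CPM in control, and Thy1, a surface glycoprotein, 14.5 ± 0.7504 CPM and 193 ± 10.4 CPM. The platelet-derived growth factor receptors Pdgfra and Pdgfrb averaged 37.9 ± 1.96 and 226 ± 11.8 CPM at 16 h, against 98.8 ± 12.6 and 485 ± 22.6 CPM in control. Col3a1, of type III collagen, had 25.998, 22.7, 18.97 and 22.5 CPM at 16 h and 17.1, 17.4, 16.8 and 18.95 CPM in control, and its polysome change minus its cytosolic change was 1.65 ± 0.104 on the log2 scale. These genes were named after their values were seen.

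Interferon response genes also differed in how the kinds of RNA compared. Ifih1, which encodes the RNA sensor MDA5, rose 9.03-fold in polysomes but 1.49-fold in the cytosol, and Parp14 rose 3.57-fold in polysome RNA with a cytosolic log2 change of 0.15 ± 0.0822, which was not called. Isg15, a ubiquitin-like modifier with a short coding region, rose 2.23-fold in polysomes but 5.08-fold in the cytosol. These 3 were named after their values were seen.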
